A study of Mus musculus with 12 samples.

Results

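Genes for the folding of secretory proteins in the endoplasmic reticulum (ER) and for the disposal of those that fail to fold were followed in islets of mice that lost Taf4 in beta cells. The group holds 10 genes of the 34820 in the deposited table, taken by symbol as known targets or effectors of the XBP1 and ATF6 branches of the unfolded protein response. Hspa5, Hsp90b1, Sdf2l1 and Dnajb9 encode ER chaperones and cochaperones, and Ero1lb encodes an ER oxidase. Sel1l, Syvn1, Herpud1 and Edem1 act in ER-associated degradation, and Xbp1 encodes a transcription factor. All 10 passed the filter on low counts, which kept 20180 genes.

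RNA of isolated islets of Langerhans from adult C57/Bl6 mice was sequenced in bulk. Every animal carried the tamoxifen-inducible Ins1::Cre-ERT2 transgene and received tamoxifen, and Taf4 was intact in the wild type (3 libraries) and floxed on both alleles in the mutants. Mutant islets were taken 1 week (3 libraries), 3 weeks (3 libraries) and 5 weeks (2 libraries, replicates 2 and 3) after the injections, while the wild type has no time label. Each library is a pool of islets from 2 mice, kept in culture before extraction, and Cre acts only in cells that use the Ins1 promoter, so other islet cells keep Taf4. The protein made from Taf4 is part of TFIID, the complex through which core promoters are recognised.

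Beta cells make insulin in amounts that load the ER heavily, and they depend on its chaperones. BiP, the product of Hspa5, binds unfolded chains and holds the sensors ATF6, IRE1 and PERK inactive until unfolded protein accumulates. Activated IRE1 splices Xbp1 mRNA and activated ATF6 is released as a transcription factor, and both raise genes for chaperones and degradation. PERK instead slows translation and raises ATF4 and its target Ddit3 (CHOP).

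The libraries held 13865518 to 21581153 counts and differed between groups in more than genotype. Transcripts of 24 acinar markers, the genes of the exocrine pancreas around the islets, took 26.4 to 47.8% of counts in the wild type. They took 6.49 to 22.3% at 1 week, 3.08 to 4.37% at 3 weeks, and 0.220 and 0.0330% at 5 weeks, and all 24 were detected in each group. The 10 beta cell markers took 8.93 to 16.2% of counts in the wild type and 13.99 to 20.9% at 1 week. They took 16.7 to 19.3% at 3 weeks, and 9.57 and 4.81% at 5 weeks. The 6 alpha cell markers took 2.19 to 4.09% in the wild type and 15.8 to 17.7% at 1 week. They took 10.6 to 12.5% at 3 weeks, and 12.6 and 9.14% at 5 weeks. The 3 delta cell markers took 0.191 to 0.324% in the wild type, and 0.802 to 1.47%, 0.941 to 1.77% and 0.418 to 0.49% at the 3 times. Counts of Xist were 122 to 389 in wild-type libraries and 24615 to 69939 in mutant ones, while 4 Y-linked genes summed to 1599 to 2254 and 0 to 3, so genotype, sex-linked transcripts and acinar share cannot be told apart here. Levels are given as CPM, counts scaled to library totals corrected by TMM factors (trimmed means of M-values). Whole-gene levels of Taf4 (listed as Taf4a) overlapped between the groups, at 23.0 to 29.8 CPM in wild-type and 21.7 to 37.0 CPM in mutant libraries. Scaled to library totals alone they did not overlap, at 18.3 to 23.3 and 23.9 to 43.5 CPM, with the mutants higher. Such counts do not single out the floxed exons. In whole islets, fewer cells of a type and less RNA per cell also cannot be told apart.

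ATF6 and XBP1 are known to act through short promoter elements, so the promoters were read from 250 bases before to 50 bases after the annotated start. The ER stress response element, searched on both strands as CCAAT, 9 bases of any kind and CCACG, was found in Hspa5, Hsp90b1, Ero1lb and Syvn1, which is 4 of the 10 genes. Of 27025 genes with a window in the same RefSeq set, 0.137% held it. Its second form, ATTGG, 1 base of any kind and CCACG, was found in Herpud1 and in 0.0444% of genes. The unfolded protein response element, TGACGTGG, was found in none of the 10 and in 0.714% of genes, and none of these forms was found for Sdf2l1, Dnajb9, Sel1l, Edem1 or Xbp1. A match describes the letters and shows no binding. The 5 stretches are printed to show the element that 4 genes of unlike response shared and the second form in Herpud1, with the fixed letters of each element in capitals, read 5′ to 3′ on the strand of the gene (RefSeq, GRCm38.p6):
Hspa5 (chr2:34772005-34772063, plus strand): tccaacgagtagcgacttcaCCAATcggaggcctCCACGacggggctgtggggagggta
Hsp90b1 (chr10:86705513-86705676, minus strand): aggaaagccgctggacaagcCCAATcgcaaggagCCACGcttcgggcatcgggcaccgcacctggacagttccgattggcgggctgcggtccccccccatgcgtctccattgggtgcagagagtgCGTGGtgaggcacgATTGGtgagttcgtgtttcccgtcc
Ero1lb (chr13:12565662-12565720, plus strand): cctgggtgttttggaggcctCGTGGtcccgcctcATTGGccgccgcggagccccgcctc
Syvn1 (chr19:6046512-6046570, plus strand): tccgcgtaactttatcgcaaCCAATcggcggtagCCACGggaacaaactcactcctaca
Herpud1 (chr8:94386357-94386407, plus strand): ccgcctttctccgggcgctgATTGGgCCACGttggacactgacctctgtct

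In Hspa5 the element ended 47 bases before the start, and in Syvn1 26 bases before it. Hsp90b1 held 2 elements, 1 in each orientation, and that of Ero1lb lay on the opposite strand. These 5 genes did not move together. At 5 weeks Hspa5 and Herpud1 were higher than in the wild type, Ero1lb was lower, and Hsp90b1 and Syvn1 did not pass the test.

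Across the 10 genes, the comparisons of mutant with wild type gave more falls than rises at 1 and 3 weeks and as many of each at 5 weeks, the last under the scaling used here. Calls rest on edgeR's quasi-likelihood test at an adjusted p below 0.05 over all genes tested. At 1 week 4 genes were lower (Sdf2l1, Ero1lb, Sel1l and Edem1) and 0 higher, where 4.42% of all genes tested were lower and 5.34% higher. An unadjusted p below 0.05 was reached by 1 gene with a positive change, Dnajb9, and DESeq2 called it. At 3 weeks the same 4 were lower and Dnajb9 was higher, where 7.76% of all genes were lower and 8.24% higher. At 5 weeks 3 were lower (Sdf2l1, Ero1lb and Sel1l) and 3 higher (Hspa5, Dnajb9 and Herpud1), where 14.1% were lower and 15.0% higher. With a log2 fold change beyond 1 in either direction also required, 3 genes were lower at each time, against 2.92, 5.05 and 11.2% of all genes, and 0 were higher, against 1.65, 1.60 and 4.26%. Without regard to the test, every mutant library lay below every wild-type library for 4, 7 and 4 of the genes at 1, 3 and 5 weeks, against 15.7, 19.4 and 28.0% of all genes. Every one lay above for 1, 1 and 3, against 15.1, 20.7 and 26.3%.

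The median log2 fold change of the 10 genes was -0.34, -0.40 and -0.39 at 1, 3 and 5 weeks, beside -0.04, -0.05 and -0.03 over all genes tested. The 3 comparisons share the wild-type libraries. These tests scale libraries by trimmed means of M-values, and other scalings changed some directions. Scaled by library totals alone, the log2 fold changes of all genes moved up by a median of 0.19, 0.66 and 0.99 at the 3 times, and scaled on 12 endocrine genes they moved by -0.21, -0.22 and 0.52. Under library totals 1057, 7176 and 9963 of all genes were higher and 417, 514 and 894 lower, and under endocrine scaling 435, 509 and 7473 were higher and 1607, 2403 and 1560 lower, in place of 1077, 1663 and 3027 higher and 892, 1566 and 2836 lower. Of the 10 genes, 2 were higher and 3 lower at 3 weeks and 5 higher and 1 lower at 5 weeks under library totals. Under endocrine scaling 0 were higher and 6 lower at 3 weeks, and 3 higher and 2 lower at 5 weeks. Directions that turn under either scaling are named beside the gene.

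**Figure D1:**
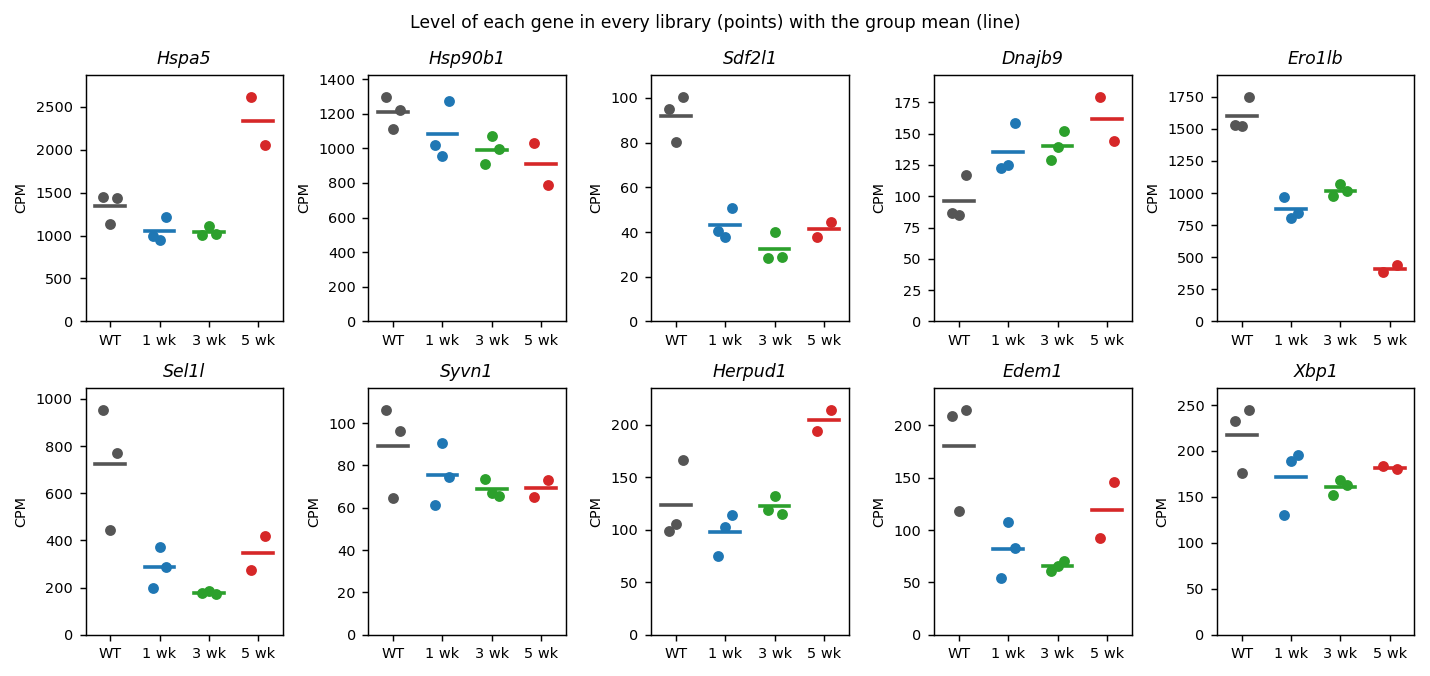
Level of each of the 10 genes (vertical axes, CPM, from 0) in every library (points) of the wild type (WT) and of the mutants at 1, 3 and 5 weeks, with a line at the group mean. Hspa5 stands at 2058 and 2612 CPM at 5 weeks against at most 1449 in any other library, while Ero1lb is lowest there.

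Hspa5 encodes BiP, the main Hsp70 chaperone of the ER. Wild-type replicates 1 to 3 gave 1449, 1136 and 1433 CPM, those at 1 week 999, 951 and 1216, and those at 3 weeks 1010.1, 1107 and 1018. The 5-week replicates gave 2612 and 2058 CPM, so both libraries lay above all others. The log2 fold change against wild type at 5 weeks was 0.80 ± 0.20 (standard error; edgeR adjusted p = 0.00538), or 1.74-fold. It was -0.34 ± 0.18 at 1 week and -0.36 ± 0.18 at 3 weeks (edgeR adjusted p = 0.240 and 0.196), with the sign at 3 weeks turning to 0.34 under library totals. Hspa5 was also higher at 5 weeks than at 1 week, by 1.15 ± 0.20 (edgeR adjusted p = 0.000526), and than at 3 weeks, by 1.16 ± 0.20 (edgeR adjusted p = 0.000681).

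Hsp90b1 encodes GRP94, the Hsp90 chaperone of the ER, which takes over clients from BiP. Wild-type libraries held 1296, 1111 and 1223 CPM, 1-week libraries 1021, 954 and 1272, and 3-week libraries 909, 1070.1 and 994. The 5-week libraries held 1032 and 788 CPM, below every wild-type library. The log2 fold changes were -0.16 ± 0.18, -0.29 ± 0.18 and -0.41 ± 0.20, none past the threshold (edgeR adjusted p = 0.606, 0.291 and 0.125). All 3 signs turned under library totals, to 0.04, 0.39 and 0.58, and that at 5 weeks turned to 0.10 under endocrine scaling.

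The ratio of Hspa5 to Hsp90b1 counts within a library does not depend on scaling. Wild-type ratios ran from 1.02 to 1.17, 1-week ratios from 0.956 to 0.997 and 3-week ratios from 1.02 to 1.11. At 5 weeks it was 2.53 and 2.61, apart from all 9 other libraries. The ratio of Hspa5 to Ero1lb counts was 0.745 to 0.945 in the wild type, 1.01 to 1.44 at 1 and 3 weeks, and 6.77 and 4.69 at 5 weeks. BiP mRNA therefore gained on both genes at the last time, whichever scaling is taken.

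**Figure D2:**
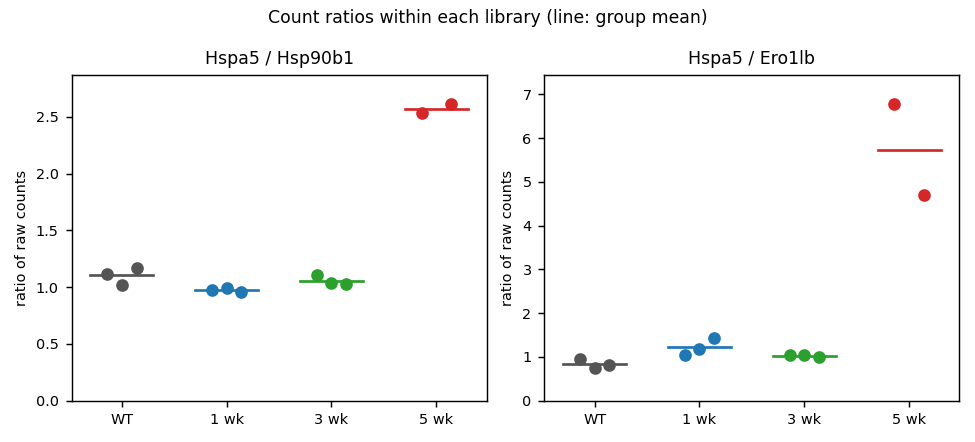
Ratio of raw counts within each library (points) for Hspa5 over Hsp90b1 (left) and Hspa5 over Ero1lb (right), with a line at the group mean and axes from 0. The 2 libraries at 5 weeks stand at 2.53 and 2.61 on the left and at 6.77 and 4.69 on the right, above every other library.

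Dnajb9 encodes ERdj4, a J-domain cochaperone that recruits BiP to IRE1 and to proteins bound for degradation. Its wild-type levels were 86.3, 84.9 and 117 CPM, and its 1-week levels 123, 125 and 159. At 3 weeks 129, 139 and 152 CPM were measured, and later 179 and 144 at 5 weeks. Every mutant library exceeded every wild-type library. The log2 fold change rose past the threshold at 3 weeks (0.54 ± 0.16, edgeR adjusted p = 0.0257) and at 5 weeks (0.75 ± 0.17, edgeR adjusted p = 0.00352). At 1 week it was 0.49 ± 0.16 (edgeR adjusted p = 0.0560). The call at 3 weeks was lost without wild-type replicate 1 or 2 (adjusted p = 0.116 and 0.108) or mutant replicate 2 or 3 (0.0671 and 0.115), and under endocrine scaling (0.191).

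Sdf2l1 encodes a partner of the J-domain cochaperone ERdj3 that keeps unfolded chains soluble for BiP. Levels of 95.1, 80.2 and 100.4 CPM in wild-type libraries compared with 40.5, 37.9 and 50.8 at 1 week. The 3-week libraries held 28.3, 40.0 and 28.6 CPM, and the 5-week libraries 37.7 and 44.6. Each mutant library was thus well below the lowest wild-type library. The log2 fold changes were -1.09 ± 0.17, -1.51 ± 0.17 and -1.16 ± 0.19 (edgeR adjusted p = 0.000590, 9.79e-06 and 0.000171). At 5 weeks the change shrank to -0.14 under library totals (edgeR adjusted p = 0.712), where all genes had a median of 0.95.

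Ero1lb encodes ERO1-beta, the oxidase that feeds disulfide formation in proinsulin and is most abundant in the pancreas. Wild-type libraries held 1533, 1526 and 1748 CPM, 1-week libraries 966, 805 and 846, and 3-week libraries 975, 1069.5 and 1012. At 5 weeks only 386 and 439 CPM were left, the lowest of all libraries. The log2 fold changes were -0.88 ± 0.16, -0.65 ± 0.16 and -1.96 ± 0.19 (edgeR adjusted p = 0.00250, 0.00911 and 6.53e-07), with the sign at 3 weeks turning to 0.02 under library totals. The last is a 3.89-fold fall. The call at 1 week ended under library totals (edgeR adjusted p = 0.162), and that at 3 weeks without mutant replicate 1 or 3 (0.0541 and 0.0509).

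Ero1lb was lower at 5 weeks than at 1 week, with a log2 difference of -1.08 ± 0.19 (edgeR adjusted p = 0.000469), and than at 3 weeks, with a difference of -1.31 ± 0.19 (edgeR adjusted p = 0.000108). The first of these became -0.29 under library totals and -0.36 under endocrine scaling, neither past the threshold (edgeR adjusted p = 0.502 and 0.193). Its paralogue Ero1l, the broadly expressed ERO1-alpha, went the other way at 5 weeks, with a rise of 1.89 ± 0.15 (edgeR adjusted p = 8.3e-08). Ero1l is named here after its value was seen.

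**Figure D3:**
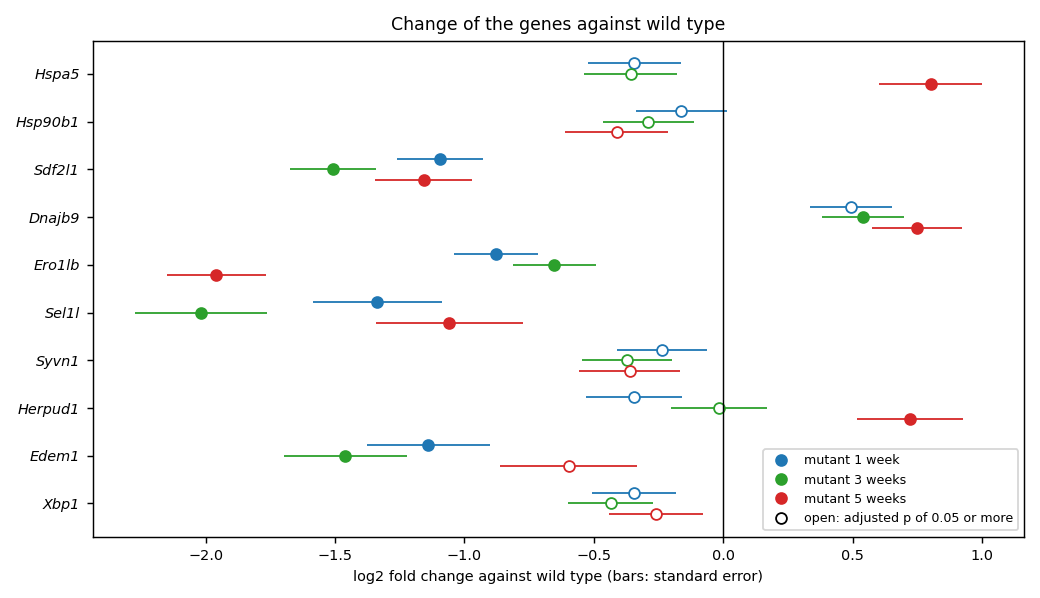
Log2 fold change against wild type (horizontal axis, bars are standard errors) of the 10 genes at 1, 3 and 5 weeks, with filled points where the edgeR adjusted p was below 0.05. Sdf2l1, Ero1lb and Sel1l lie to the left of 0 at all 3 times, and Hspa5 and Herpud1 lie to the right only at 5 weeks; under library totals Sel1l at 5 weeks and Ero1lb at 3 weeks move to 0.03 and 0.02, and Hspa5 and Herpud1 are above 0 at 3 weeks too.

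Sel1l encodes the adaptor that holds the ubiquitin ligase HRD1 in the ER membrane, and it fell at every time. Its wild-type levels were 952, 442.5 and 773 CPM, and its 1-week levels 198, 374 and 286. The 3-week libraries held 176, 185 and 174 CPM, and the 5-week libraries 276 and 417. All mutant libraries were below the lowest wild-type library, by a margin that was narrow for the highest of them. The log2 fold changes were -1.34 ± 0.25, -2.02 ± 0.26 and -1.06 ± 0.28 (edgeR adjusted p = 0.00281, 3.55e-05 and 0.00903). The change at 5 weeks was 0.03 under library totals and -0.57 under endocrine scaling (edgeR adjusted p = 0.936 and 0.124). It was also lost without mutant replicate 2 or wild-type replicate 1 (0.123 and 0.0554).

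Edem1 encodes a mannosidase-like lectin that marks misfolded glycoproteins for disposal, and it moved much as Sel1l did. Wild-type libraries held 209, 118 and 214 CPM, 1-week libraries 54.6, 108 and 83.3, and 3-week libraries 61.3, 65.3 and 70.1. The 5-week libraries held 92.7 and 146 CPM, which overlapped the wild type. The log2 fold change was -1.14 ± 0.24 at 1 week and -1.46 ± 0.24 at 3 weeks (edgeR adjusted p = 0.00574 and 0.000382). At 5 weeks the change was -0.60 ± 0.26 (edgeR adjusted p = 0.0965), with the sign turning to 0.49 under library totals. It passed the threshold without mutant replicate 3 or wild-type replicate 2 (0.0428 and 0.0233).

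Levels of Sel1l and Edem1 were lowest where the acinar share was lowest, both in the wild type and in the mutant at 1 week. In the wild type the lowest library for both was replicate 2, with 26.4% acinar counts against 44.5 and 47.8%. At 1 week the lowest was replicate 1, with 6.49% against 17.0 and 22.3%. At 3 weeks the shares were 3.08, 4.37 and 3.18% in replicates 1 to 3. There Edem1 was lowest in replicate 1 (61.3 CPM) and Sel1l in replicate 3 (174 CPM). At 5 weeks the order was the opposite, since replicate 3 had the higher Sel1l and Edem1 and an acinar share of 0.0330% against 0.220%. The low libraries were not particular to these genes. Syvn1, Xbp1 and Dnajb9 were also lowest in wild-type replicate 2 and in 1-week replicate 1. Hspa5, Hsp90b1, Sdf2l1 and Ero1lb were lowest in replicate 2 of each of these groups, and Herpud1 in replicate 1 of each. Cpa1 (carboxypeptidase A1), a defining acinar gene, stood at 20321 to 57666 CPM in the wild type and at 10.2 and 63.5 CPM at 5 weeks. The part of acinar RNA in the falls of Sel1l and Edem1 was not tested.

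**Figure D4:**
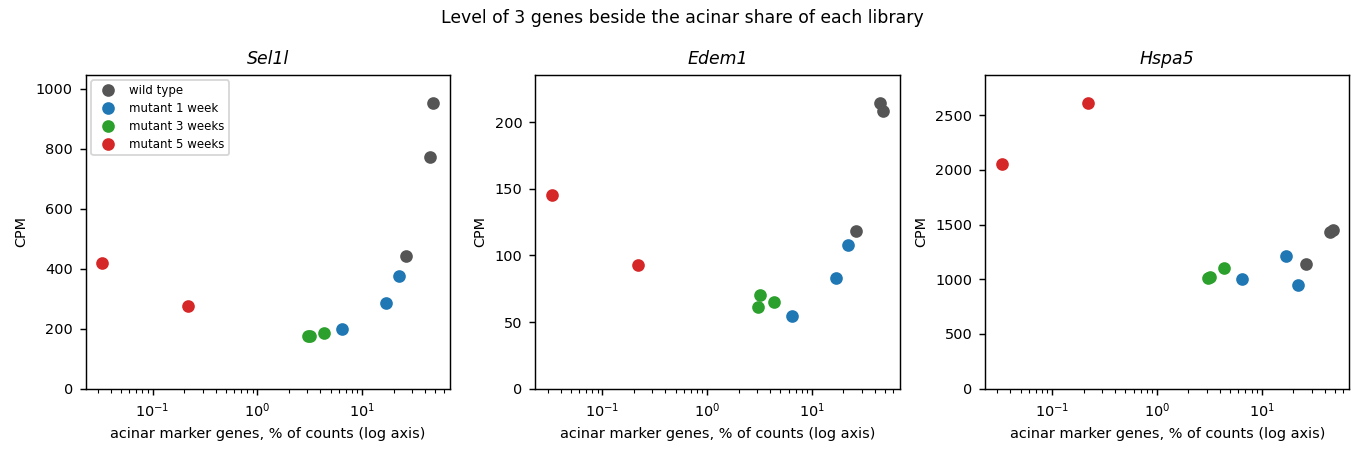
Level (CPM, axis from 0) of Sel1l, Edem1 and Hspa5 in each library (points, coloured by group) against the share of counts taken by 24 acinar marker genes (percent, log axis). Among wild-type and 1-week libraries Sel1l and Edem1 are lowest where the share is lowest (26.4 and 6.49%), and Hspa5 is so in the wild type only. At 5 weeks, with shares of 0.0330 and 0.220%, Hspa5 is at its highest.

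Sel1l was higher at 5 weeks than at 3 weeks, by a log2 difference of 0.96 ± 0.27 (edgeR adjusted p = 0.0268), and so was Edem1, by 0.86 ± 0.26 (edgeR adjusted p = 0.0355). Both calls rested on single libraries. Without mutant 5 weeks replicate 3 they were 0.63 and 0.50 (edgeR adjusted p = 0.221 and 0.311), and leaving out any single library at 3 weeks ended each of them (0.0604 to 0.119). Both were larger under endocrine scaling, at 1.70 and 1.61. With the replicate number added to the model neither was called (edgeR adjusted p = 0.0700 and 0.0935).

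Herpud1 encodes an ER membrane protein that assembles with the HRD1 complex and is known as an early target of ER stress. Wild-type replicates gave 98.6, 106 and 167 CPM, those at 1 week 75.3, 103 and 114, and those at 3 weeks 119, 132 and 115. The 5-week replicates gave 194 and 214 CPM, above all other libraries. The log2 fold change there was 0.72 ± 0.20 (edgeR adjusted p = 0.0125), after -0.34 ± 0.19 and -0.02 ± 0.19 at 1 and 3 weeks (edgeR adjusted p = 0.256 and 0.969). The value at 3 weeks turned to 0.69 under library totals. The call at 5 weeks was lost without mutant replicate 3 (adjusted p = 0.0616) and without wild-type replicate 1 or 2 (0.0624 and 0.0539).

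Between mutant times, Herpud1 rose by 1.07 ± 0.20 from 1 to 5 weeks (edgeR adjusted p = 0.00123) and by 0.74 ± 0.20 from 3 to 5 weeks (edgeR adjusted p = 0.0230). The second was lost without mutant 3 weeks replicate 1 or 3 (0.0837 and 0.0925) or either library at 5 weeks (0.0530 and 0.0971). The call of Herpud1 from 3 to 5 weeks was also lost with the replicate number added to the model (edgeR adjusted p = 0.0674). Under the main scaling, Hspa5 and Herpud1 were thus the members called higher at 5 weeks than in each of the other 3 groups. Dnajb9 joined them under endocrine scaling. With no timed wild type, such a change and the age of the animals cannot be told apart.

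Syvn1 encodes HRD1, the ubiquitin ligase itself, and Xbp1 encodes the transcription factor that IRE1 activates. Syvn1 ran from 64.7 to 106 CPM over wild-type and from 61.5 to 90.4 CPM over mutant libraries, so the groups overlapped at each time. Its log2 fold changes were -0.24 ± 0.17, -0.37 ± 0.17 and -0.36 ± 0.20 (edgeR adjusted p = 0.416, 0.161 and 0.174). They turned to 0.35 and 0.69 at 3 and 5 weeks under library totals, and to 0.14 at 5 weeks under endocrine scaling. At 3 weeks Syvn1 was called lower under endocrine scaling (-0.60, edgeR adjusted p = 0.0399). At 5 weeks it was called higher under library totals (edgeR adjusted p = 0.0261). Xbp1 ran from 176 to 244 CPM over wild-type and from 130.3 to 195 CPM over mutant libraries. Its changes were -0.35 ± 0.16, -0.44 ± 0.16 and -0.26 ± 0.18 (edgeR adjusted p = 0.190, 0.0773 and 0.303). They turned to 0.27 and 0.77 at the later times under library totals, and to 0.26 at 5 weeks under endocrine scaling. At 3 weeks Xbp1 was called lower under endocrine scaling (-0.66, edgeR adjusted p = 0.0164). So it was in a fit of the 2 compared groups alone (-0.42, 0.0163). At 5 weeks it was called higher under library totals (0.0160), where 9963 of the 20180 genes tested were. Counts per gene do not separate spliced from unspliced Xbp1, so they say nothing of its activation.

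Between 3 weeks and 1 week 0 of the 10 genes passed edgeR's test and 0 passed DESeq2's, while 2 were lower at an unadjusted p below 0.05. The log2 fold changes ran from -0.68 to 0.33. Of all genes tested, 0.942% were higher and 2.87% lower in that comparison. At 5 weeks against 1 week 2 genes were higher and 1 lower, where 7.68 and 8.76% of all genes were called, and against 3 weeks 4 were higher and 1 lower, where 6.07 and 5.71% were called. Under both library totals and endocrine scaling 8 were higher and 0 lower at 5 weeks than at 1 week, and under endocrine scaling 9 were higher than at 3 weeks. Of the 20180 genes tested, 8526 and 8948 were higher in the first case under these scalings, and 9303 in the second. With the replicate number added to the model, 1 of the 10 was higher at 5 than at 3 weeks. Libraries did not overlap upward for 2, 2 and 5 of the genes in the 3 comparisons between mutant times, against 12.4, 20.7 and 20.2% of all genes, and downward for 1 in each, against 11.8, 18.3 and 20.7%.

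Levels can be compared between genes only per length, for which the deposited signal (normalised counts over median transcript length) was used. That median is over the transcripts of a gene, 8 for Hspa5, 9 for Sel1l and 1 for Ero1lb in the annotation read here. The order below therefore depends on which transcripts were listed. By CPM, not scaled for length, Ero1lb was highest in the wild type at a mean of 1602. Hspa5 (1339), Hsp90b1 (1210) and Sel1l (722) stood below it. By signal, Hspa5 was highest in the wild type at a mean of 35631, followed by Hsp90b1 (18616), Sel1l (8861) and Ero1lb (6512). Herpud1 (2915), Xbp1 (2612), Sdf2l1 (1428), Dnajb9 (888), Edem1 (530) and Syvn1 (506) came after them. Neighbours whose libraries overlapped were Sel1l and Ero1lb, Herpud1 and Xbp1, and Edem1 and Syvn1. At 5 weeks Hspa5 led by more (63126 against 14222 for Hsp90b1), Herpud1 (4878) came next with Sel1l (4313) overlapping it, and Ero1lb had dropped to 1699, overlapping Dnajb9 (1515).

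Wider lists of the same pathways show what surrounded these genes. Their counts are set beside the shares over all genes given above, 4.42, 7.76 and 14.1% lower and 5.34, 8.24 and 15.0% higher at 1, 3 and 5 weeks, and the lists were not tested against each other. Those shares hold for the main scaling only. Under library totals 1057, 7176 and 9963 of the 20180 genes tested were higher at these times, and 417, 514 and 894 lower. Under endocrine scaling 435, 509 and 7473 were higher and 1607, 2403 and 1560 lower. List counts under these scalings are to be read beside these numbers. Of 27 other chaperones and folding enzymes, 8, 10 and 12 were lower at 1, 3 and 5 weeks and 3, 2 and 6 higher, with median log2 fold changes of -0.15, -0.27 and -0.34. The balance turned under library totals at 1, 3 and 5 weeks, to 1, 3 and 3 lower and 2, 10 and 13 higher, and under endocrine scaling at 5 weeks, to 4 lower and 9 higher. Fkbp11, an ER prolyl isomerase, fell furthest in this list, with log2 fold changes of -1.50 ± 0.26, -2.97 ± 0.28 and -4.95 ± 0.37 (edgeR adjusted p = 0.00174, 1.95e-06 and 3.37e-08). Its level was 130, 83.1 and 142 CPM in wild-type libraries and 5.07 and 2.67 at 5 weeks. Its lowest libraries in the wild type and at 1 week (27.5 CPM) were those with the lowest acinar share. Prdx4, an ER peroxiredoxin, fell by 2.75 ± 0.36 at 5 weeks (edgeR adjusted p = 1.76e-05). It was lowest in the same wild-type and 1-week libraries (39.1 and 21.2 CPM). At 3 weeks it was lowest where the acinar share was highest (15.3 CPM). The part of acinar RNA in the falls of Fkbp11 and Prdx4 was not tested. Sdf2, the paralogue of Sdf2l1, rose where Sdf2l1 fell, by 1.04 ± 0.21 at 1 week and 0.73 ± 0.20 at 3 weeks (edgeR adjusted p = 0.00423 and 0.0210). The second of these was lost under endocrine scaling (0.0597) and without wild-type replicate 1 or 2 or mutant replicate 2 or 3 (0.0502 to 0.120).

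Of 22 other degradation genes in the table, 3, 5 and 4 were lower and 1, 1 and 7 higher, with medians of -0.02, -0.11 and 0.27. Under library totals 9 were higher and 2 lower at 3 weeks and 17 higher and 1 lower at 5 weeks, and under endocrine scaling 14 were higher and 2 lower at 5 weeks. Derl3, a derlin of the ER membrane, fell most, with log2 fold changes of -2.02 ± 0.36, -3.74 ± 0.39 and -2.92 ± 0.43 (edgeR adjusted p = 0.00198, 6.42e-06 and 7.09e-05). It stood at 41.5 to 88.0 CPM in the wild type, and its lowest library at 1 week, at 6.61 CPM, was again the one with the lowest acinar share. Rnf5, a ubiquitin ligase of the ER membrane, fell by 2.23 ± 0.38 at 3 weeks (edgeR adjusted p = 0.000518). Derl1 and Derl2 rose at 5 weeks, by 1.00 and 0.74, and are named after their values were seen.

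**Figure D5:**
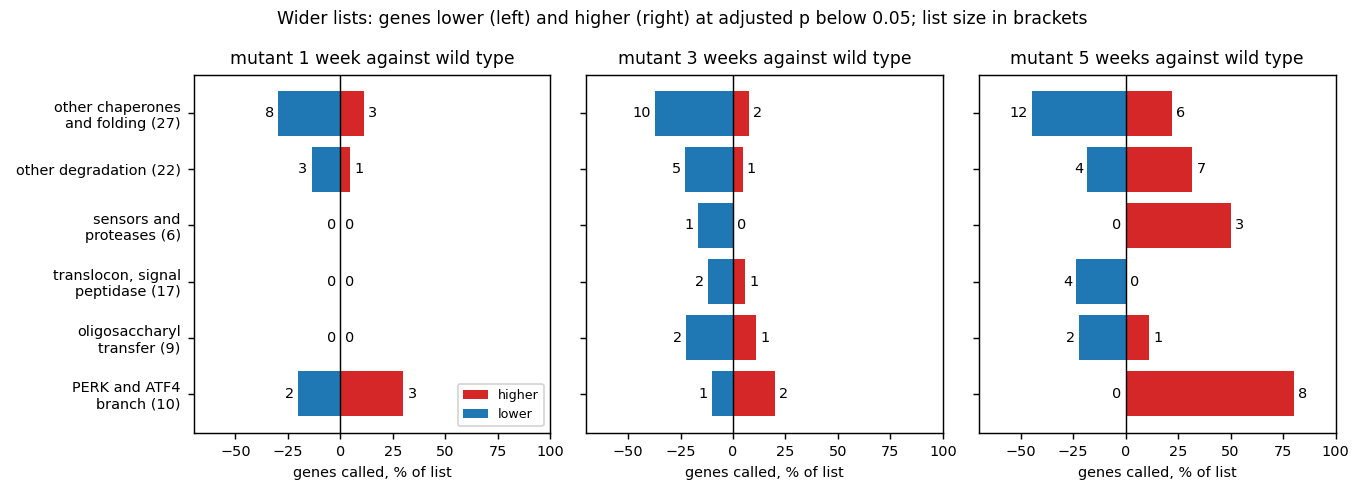
Share of each list (horizontal axis, percent of the genes tested) lower (left, blue) and higher (right, red) at an edgeR adjusted p below 0.05 at 1, 3 and 5 weeks against wild type, with the number of genes beside each bar. At 5 weeks 8 of the 10 PERK and ATF4 genes are higher and 12 of the 27 other chaperones lower. Under library totals the balance of the other chaperones turns to 13 higher and 3 lower, and that of the translocon list to 11 higher and 0 lower. Of the 20180 genes tested, 9963 are higher and 894 lower under that scaling.

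Further lists covered entry into the ER and glycosylation. Of 17 translocon and signal peptidase genes, 0, 2 and 4 were lower and 0, 1 and 0 higher, and counts this small are not read as a result about the list. Of 9 oligosaccharyl transfer genes, 0, 2 and 2 were lower and 0, 1 and 1 higher. At 1 week, where edgeR called 0 genes of either list, an unadjusted p below 0.05 was reached by 2 translocon genes upward and 4 downward and by 1 and 4 of the oligosaccharyl transfer genes. DESeq2 called 1 in each direction in each list. Both lists turned toward higher at 5 weeks under library totals (11 and 6 higher, 0 lower) and under endocrine scaling (6 and 4 higher, 0 lower). Under these scalings 9963 and 7473 of the 20180 genes tested were higher. Of 6 sensors and their proteases, edgeR and DESeq2 called 0 at 1 week, where 1 was lower at an unadjusted p below 0.05, and 3 were higher at 5 weeks: Ern1, which encodes IRE1, by 1.15 ± 0.17, Atf6 by 0.70 ± 0.15 and the ATF6 protease gene Mbtps2 by 0.69 ± 0.23 (edgeR adjusted p = 8.45e-05, 0.00141 and 0.0314). Eif2ak3, which encodes PERK, was lower at 3 weeks, with a change of -0.77 ± 0.18 (edgeR adjusted p = 0.00695). It was the only gene of this list called lower there, and the call was lost under library totals and on leaving out a library. These 4 sensor genes are also named after their values were seen.

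Of 10 genes of the PERK and ATF4 branch, 8 were higher at 5 weeks with a median log2 fold change of 1.50, beside -0.03 over all genes. All 10 were higher at 5 weeks than at 1 week and than at 3 weeks, where 7.68 and 6.07% of all genes tested were higher. At 1 week 3 were higher and 2 lower, and at 3 weeks 2 and 1. Ddit3 (CHOP) stood at 10.3 to 12.4 CPM in the wild type, 20.8 to 24.6 at 1 and 3 weeks, and 290 and 219 at 5 weeks. Its log2 fold change was 1.02 ± 0.15, 0.95 ± 0.15 and 4.52 ± 0.17 (edgeR adjusted p = 0.000499, 0.000286 and 5.62e-12).

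Trib3, a pseudokinase gene that CHOP and ATF4 induce, rose by 4.75 ± 0.34 at 5 weeks (edgeR adjusted p = 2.21e-08), from 1.12 to 2.42 CPM in the wild type to 45.4 and 55.9. Ppp1r15a (GADD34), which restores translation after PERK, rose by 0.71 ± 0.17 at 3 weeks and 3.14 ± 0.18 at 5 weeks (edgeR adjusted p = 0.00732 and 3.48e-09). Its call at 3 weeks was lost under endocrine scaling (0.0634). Sesn2, a stress-induced gene, rose by 1.02 ± 0.19 at 1 week (edgeR adjusted p = 0.00286). Atf3 fell by 2.55 ± 0.46 at 1 week (edgeR adjusted p = 0.00226), and stood at 0.494, 4.11 and 1.61 CPM there against 7.25 to 17.6 in the wild type.

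Among 8230 genes of at least 10 CPM on average, those whose log2 CPM followed Hspa5 most closely over the 11 libraries were Eif4g2 (Pearson r = 0.963), Ltv1 (0.963), Lars (0.958), Txn2 (0.949) and Derl1 (0.949). Within the group of 10, Herpud1 was nearest (r = 0.794, rank 287), while Hsp90b1 stood at -0.09 and Ero1lb at -0.59. These coefficients describe libraries that fall into 4 groups and share their scaling, and much of the spread is the step at 5 weeks. Over all 45 pairs of the 10 genes, r ran from -0.74 to 0.97 with a median of 0.36.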

How the data were processed

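According to processing notes and methods, the authors amplified cDNA from total RNA, demultiplexed reads with bcl2fastq 2.17.1.14 and trimmed them with cutadapt 1.10. Ribosomal reads were removed with Bowtie2 2.2.8 and the rest aligned to mm9 with STAR 2.5.3a. The deposited counts are raw whole numbers of uniquely aligned reads per Ensembl 67 gene, made by the authors with HTSeq in union mode. Whether counting used strand is not given in the sources used here, and reads of a gene and of its antisense partner may be mixed. Reads shared by close paralogues were lost. The deposited signal holds the authors' normalised counts divided by median transcript length, and it served only to order genes by level. Deposited fold changes and p-values of the authors' own comparisons were not used.

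Sample titles gave the groups and replicates. The table held 34820 genes and 11 libraries, and replicate 1 at 5 weeks was not analysed here. Counts were fitted with edgeR 4.0.16 in R 4.3.3 as 1 quasi-likelihood model over 4 groups, after filterByExpr, which left 20180 genes holding 99.8% or more of each library's counts. TMM factors (trimmed means of M-values) set the library sizes and the CPM. Benjamini-Hochberg adjustment ran over all 20180 genes, separately for each of 6 comparisons. Standard errors are the log2 fold change over the square root of F. With 3 libraries a group and 2 at 5 weeks, p-values measure the spread between pools of animals. The code was tested on simulated data. At 5 weeks against wild type it recovered 46% of genes given a log2 change of 1 and 83% of those given 2. A gene not called is therefore not shown to be unchanged. No 2 libraries were identical, and replicates differed by more than counting noise.

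The 10 genes, the 6 wider lists and the naming rule were chosen with earlier results of these data known. The rule took the 10 genes, the 3 largest called rises and falls of the pooled wider lists at each time against wild type, with 10 CPM or more in the higher group, the 5 genes most like Hspa5 among those averaging 10 CPM, and, where a result is set beside a cell type, marker genes such as Cpa1. Of the degradation list, Vimp was not matched by symbol. Alternatives were size factors or the Wald test of DESeq2 1.42.0, library totals, scaling on 12 endocrine genes (granins, Cpe, Pcsk1n and islet transcription factors), no filter, fits of the 2 groups alone, a replicate block, and leaving out each library. For the wider lists these were added after seeing the data. Promoter sequences and starts are from RefSeq (GRCm38.p6), a different build from that of the counts, and all 10 genes matched by symbol. Protein sequences were not analysed here.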

Additional observations from a re-analysis of the deposited data

Results flagged for a closer look

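The change against wild type differed between mutant times, by edgeR's quasi-likelihood test of the difference itself, in 8 cases. These come from the 10 genes in each of 3 comparisons between mutant times. Of all genes tested, 0.942, 7.68 and 6.07% were higher and 2.87, 8.76 and 5.71% lower from 1 to 3, 1 to 5 and 3 to 5 weeks. From 1 to 5 weeks the log2 fold change rose by 1.15 for Hspa5 and by 1.07 for Herpud1, and the difference for Ero1lb was -1.08 (edgeR adjusted p = 0.000526, 0.00123 and 0.000469). From 3 to 5 weeks it rose by 1.16 for Hspa5, 0.96 for Sel1l, 0.86 for Edem1 and 0.74 for Herpud1, and was -1.31 for Ero1lb (edgeR adjusted p = 0.000681, 0.0268, 0.0355, 0.0230 and 0.000108). For Hspa5 both libraries at 5 weeks, at 2612 and 2058 CPM, were above the 6 earlier mutant libraries, and for Ero1lb both, at 386 and 439 CPM, were below them. Ero1lb from 1 to 5 weeks was not called under library totals or endocrine scaling (edgeR adjusted p = 0.502 and 0.193). From 3 to 5 weeks, leaving out single libraries at 3 weeks ended the calls of Sel1l, Edem1 and Herpud1, as did adding the replicate number to the model.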

How the results depend on the processing

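DESeq2 size factors changed no call of the 10 genes. Values are given as higher and lower counts or log2 fold changes at 1, 3 and 5 weeks against wild type, and the cause of a change was not tested.

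With library totals alone, 12 signs turned: Hsp90b1 to 0.037 at 1 week; Hspa5 to 0.34, Hsp90b1 to 0.39, Ero1lb to 0.017, Syvn1 to 0.35, Herpud1 to 0.69 and Xbp1 to 0.27 at 3 weeks; Hsp90b1 to 0.58, Sel1l to 0.034, Syvn1 to 0.69, Edem1 to 0.49 and Xbp1 to 0.77 at 5 weeks. With endocrine scaling, Hsp90b1, Syvn1 and Xbp1 turned to 0.10, 0.14 and 0.26 at 5 weeks. Herpud1 at 3 weeks, near 0, also turned to 0.093 without the filter on low counts and ran from -0.14 to 0.28 over the fits leaving out 1 library. The genes called higher became 1 at 1 week without the filter and with DESeq2's Wald test, 2 at 3 weeks with totals and 0 with endocrine scaling, and 5 at 5 weeks with totals, where 1 was lower. From 1 to 3 weeks 1 was higher with totals, and 1 lower without the filter and in the fit of the 2 groups alone. From 1 to 5 weeks 8 were higher and 0 lower with totals and with endocrine scaling, where 8526 and 8948 of the 20180 genes tested were higher. From 3 to 5 weeks 9 were higher with endocrine scaling, where 9303 of all genes were.

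Leaving out 1 library, the higher counts ran from 0 to 1, 0 to 1 and 2 to 3 against wild type at 1, 3 and 5 weeks, and the lower counts from 4 to 4, 3 to 6 and 2 to 5. From 1 to 3 weeks they ran from 0 to 0 and 0 to 1, from 1 to 5 weeks from 2 to 2 and 1 to 1, and from 3 to 5 weeks from 1 to 4 and 1 to 1. Xbp1 and Syvn1 at 3 weeks and Syvn1 at 5 weeks passed the threshold without wild-type replicate 2 (edgeR adjusted p = 0.0394, 0.0380 and 0.0424), as did Hsp90b1 at 5 weeks without mutant replicate 2 (0.0475). Single values between mutant times are reported only where a call was made, a limit set after seeing the data. Of the 22 others, 14 changed sign in some alternative and 13 passed the threshold in some alternative, 10 and 12 of them under library totals or endocrine scaling.

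Same-numbered libraries did not deviate together (15 pairs, r from -0.11 to 0.19, 1 above 0.1), so no pairing by number was seen. With 2 or 3 libraries a group, a weak pairing could be missed. With the replicate block, the genes higher from 3 to 5 weeks became 1, the lower counts of other chaperones and of the PERK and ATF4 list at 1 week became 5 and 1, the higher count of other degradation genes there became 0, and Herpud1 at 3 weeks turned to 0.024. The genes no longer called from 3 to 5 weeks were Sel1l, Herpud1 and Edem1 (edgeR adjusted p = 0.0700, 0.0674 and 0.0935).

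The wider lists moved more, and under library totals and endocrine scaling the calls over all genes moved too, as given above. With library totals the other chaperones stood at 2 and 1, 10 and 3, and 13 and 3 (higher and lower), other degradation at 0 and 1, 9 and 2, and 17 and 1, sensors at 0 and 0, 4 and 0, and 5 and 0, the translocon at 0 and 0, 4 and 0, and 11 and 0, oligosaccharyl transfer at 0 and 0, 1 and 0, and 6 and 0, and PERK and ATF4 at 4 and 1, 5 and 0, and 10 and 0. With endocrine scaling they stood, in the same order, at 2 and 11, 0 and 13, and 9 and 4; 0 and 4, 0 and 6, and 14 and 2; 0 and 1, 0 and 1, and 4 and 0; 0 and 4, 0 and 8, and 6 and 0; 0 and 2, 0 and 4, and 4 and 0; and 2 and 2, 1 and 3, and 9 and 0. Without the filter, other chaperones higher and sensors higher at 3 weeks were 4 and 2, the translocon 2 higher at 1 week and 1 higher and 2 lower at 5 weeks, oligosaccharyl transfer 1 higher at 1 week, 1 lower at 3 weeks and 0 lower at 5 weeks, and PERK and ATF4 2 lower at 3 weeks. In fits of the 2 groups alone, 5 other chaperones, 2 other degradation genes and 2 sensors were higher at 3 weeks, where 6 translocon and 3 PERK and ATF4 genes were lower, while 1 translocon gene was higher and 1 PERK and ATF4 gene lower at 1 week, and 1 oligosaccharyl transfer gene lower at 5 weeks. With DESeq2's Wald test, 4 other chaperones and 1 sensor were higher and 4 translocon genes lower at 3 weeks, and at 1 week 1 translocon and 1 oligosaccharyl transfer gene were called in each direction. With DESeq2 size factors 1 oligosaccharyl transfer gene was higher and 1 PERK and ATF4 gene lower at 1 week.

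Leaving out 1 library, other chaperones ran from 2 to 3, 0 to 5 and 4 to 6 higher and 2 to 9, 8 to 11 and 8 to 12 lower, other degradation from 0 to 1, 1 to 1 and 3 to 7 higher and 2 to 3, 4 to 5 and 3 to 4 lower, sensors from 0 to 1, 0 to 1 and 2 to 3 higher and 0 to 0, 0 to 1 and 0 to 1 lower, the translocon from 0 to 2, 0 to 1 and 0 to 0 higher and 0 to 1, 1 to 3 and 1 to 5 lower, oligosaccharyl transfer from 0 to 1, 0 to 1 and 1 to 1 higher and 0 to 0, 0 to 3 and 1 to 3 lower, and PERK and ATF4 from 2 to 3, 2 to 2 and 8 to 9 higher and 1 to 2, 0 to 3 and 0 to 0 lower.

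Over all genes, from 1 to 3, 1 to 5 and 3 to 5 weeks 190, 1549 and 1224 were higher and 580, 1767 and 1152 lower. These became 2107, 8526 and 1985 higher and 254, 657 and 554 lower with library totals, and 129, 8948 and 9303 higher and 578, 793 and 467 lower with endocrine scaling. Other counts that moved by over 1.5 times were 1685 and 2523 higher at 1 and 3 weeks against wild type without the filter, 2749 higher at 3 weeks in the fit of the 2 groups alone, 404 higher and 901 lower (no filter), 100 and 352 (replicate block), 354 higher (2 groups alone) and 361 and 875 (DESeq2's Wald test) from 1 to 3 weeks, 700 and 1109 (2 groups alone) from 1 to 5 weeks, and 778 higher (replicate block) from 3 to 5 weeks. With 2 libraries at 5 weeks, each leave-one-out fit there assumes that the lone library varies like the other groups.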
